A study of Mus musculus with 24 samples.

Results

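The nitric oxide and cGMP genes described here are 7: Nos3, Npr1, Npr2, Npr3, Prkg1, Pde5a and Pde3a. They were chosen by their gene names, with earlier results of these data known, out of 37606 genes in the count table. All 7 had enough reads to be tested in every comparison. The RNA came from aortic homogenates of wild-type (WT) mice that were infused under the skin by osmotic minipump for 2 weeks. The pump delivered either vehicle, in the sham groups, or angiotensin II (Ang II), a pressor peptide that makes vessels contract. Aortas were taken 2, 4 or 6 months afterwards, which gives Ang II and sham groups of 4 libraries at each time and 24 libraries in all. Neither the age of the mice nor the dose is given in the sources used here. Whether each replicate is its own mouse is not stated, and p-values therefore cover the spread between libraries of a group, part or all of which could be technical. A homogenate mixes all cells of the wall and its surroundings, so fewer cells of a type and less RNA per cell cannot be told apart.

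Nitric oxide made in endothelium by the enzyme that Nos3 encodes diffuses into smooth muscle and activates soluble guanylyl cyclase, which makes cyclic GMP (cGMP). Natriuretic peptides raise cGMP by a second route, through the receptor guanylyl cyclases Npr1 and Npr2, while Npr3 binds and clears the peptides. The kinase encoded by Prkg1 carries the signal to contractile proteins and calcium channels and relaxes the vessel. Pde5a encodes an enzyme that breaks down cGMP, and Pde3a encodes one that breaks down cAMP and is inhibited by cGMP.

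On build mm10 the genes lie at chr5:24364810-24384474 (Nos3), chr3:90450591-90465866 (Npr1), chr4:43631935-43651244 (Npr2), chr15:11839896-11907287 (Npr3), chr19:30567551-31765033 (Prkg1), chr3:122728947-122859374 (Pde5a) and chr6:141249269-141507448 (Pde3a). Counts were summed over each gene, so its isoforms are not told apart.

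Promoter windows that hold a GC box are shown for Pde5a, Prkg1 and Gucy1b1, whose Ang II libraries all lay below all sham libraries at 2 months. RefSeq (build GRCm38.p6) gave a window of 250 bases before the transcript start for 5 of the 7 genes and for 4 of 5 further pathway genes that are described below. Nos3 and Pde3a had no entry. Capitals mark a GC box, the letters GGGCGG or their reverse complement CCGCCC, which was searched for on both strands. The windows lie at chr3:122728908-122729157 (plus strand) for Pde5a, at chr19:31765034-31765283 and chr19:31664371-31664620 (minus strand) for the upstream and downstream start of Prkg1, and at chr3:82074712-82074961 (minus strand) for Gucy1b1, a subunit of soluble guanylyl cyclase.

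Pde5a: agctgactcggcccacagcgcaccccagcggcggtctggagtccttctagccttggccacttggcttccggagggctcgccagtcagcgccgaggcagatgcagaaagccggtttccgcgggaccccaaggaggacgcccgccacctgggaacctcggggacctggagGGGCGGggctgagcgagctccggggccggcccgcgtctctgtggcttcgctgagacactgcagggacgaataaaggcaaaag

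Prkg1, upstream start: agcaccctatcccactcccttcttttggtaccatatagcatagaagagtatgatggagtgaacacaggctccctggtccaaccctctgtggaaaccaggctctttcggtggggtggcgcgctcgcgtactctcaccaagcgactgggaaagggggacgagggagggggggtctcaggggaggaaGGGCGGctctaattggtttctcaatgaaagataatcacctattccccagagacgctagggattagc

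Prkg1, downstream start: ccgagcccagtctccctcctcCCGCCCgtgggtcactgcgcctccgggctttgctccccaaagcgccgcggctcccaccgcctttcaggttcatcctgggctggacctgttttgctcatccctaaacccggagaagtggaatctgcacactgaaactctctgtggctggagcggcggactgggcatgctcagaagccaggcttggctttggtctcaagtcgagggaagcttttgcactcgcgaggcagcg

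Gucy1b1: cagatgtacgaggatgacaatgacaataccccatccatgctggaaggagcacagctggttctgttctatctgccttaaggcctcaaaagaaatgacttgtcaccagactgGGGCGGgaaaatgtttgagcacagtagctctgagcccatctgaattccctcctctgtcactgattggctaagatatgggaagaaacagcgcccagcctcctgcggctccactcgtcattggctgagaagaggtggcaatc

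The GC box lay 82 bases before the RefSeq start of Pde5a, 66 and 229 bases before the starts of Prkg1 and 140 bases before that of Gucy1b1. The RefSeq start of Pde5a and the downstream start of Prkg1 lie inside the gene spans given above, and so do their GC boxes. Of the 12 windows searched, 5 held one, which are the 4 shown and that of Npr1. The windows of Npr2, Npr3, Irag1, Ppp1r12b and Kcnmb1 held none, and of these Npr2, Irag1, Ppp1r12b and Kcnmb1 also had Ang II libraries below all sham libraries at 2 months. Among all 32851 mouse windows in the table, 32.7% hold one. None of the 12 windows of these genes held a CArG box, the site that serum response factor binds in many smooth muscle genes, against 1.47% of all windows. None held the TATA box letters TATAAA on either strand, which 12.4% of all windows hold. These matches describe letters in a short window and not binding.

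Levels per kilobase of exon, which allow genes to be compared, placed Npr1 first in every group. Npr1 stood at 20.6 ± 4.94 CPM (counts scaled to a fixed library total) per kilobase in Ang II aortas and 27.0 ± 4.96 in sham aortas at 2 months (SD, n = 4 each). Prkg1 was lowest in every group, at 0.211 CPM per kilobase in Ang II aortas and 0.418 in sham aortas at 2 months. Nos3, Npr2 and Npr3 lay between them at similar levels, from 5.02 to 9.80 as group means. Neighbours among these did not separate by library, except that Nos3 lay above Npr3 in the sham libraries at 2 months and Npr2 lay above Nos3 in the sham libraries at 6 months. Pde3a stood above Pde5a in each group mean, and their libraries separated fully in sham aortas at 2 and 6 months and overlapped in the other 4 groups. All other levels below are CPM of the gene as a whole, scaled by the trimmed mean of M values (TMM) over 24 libraries.

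**Figure D1:**
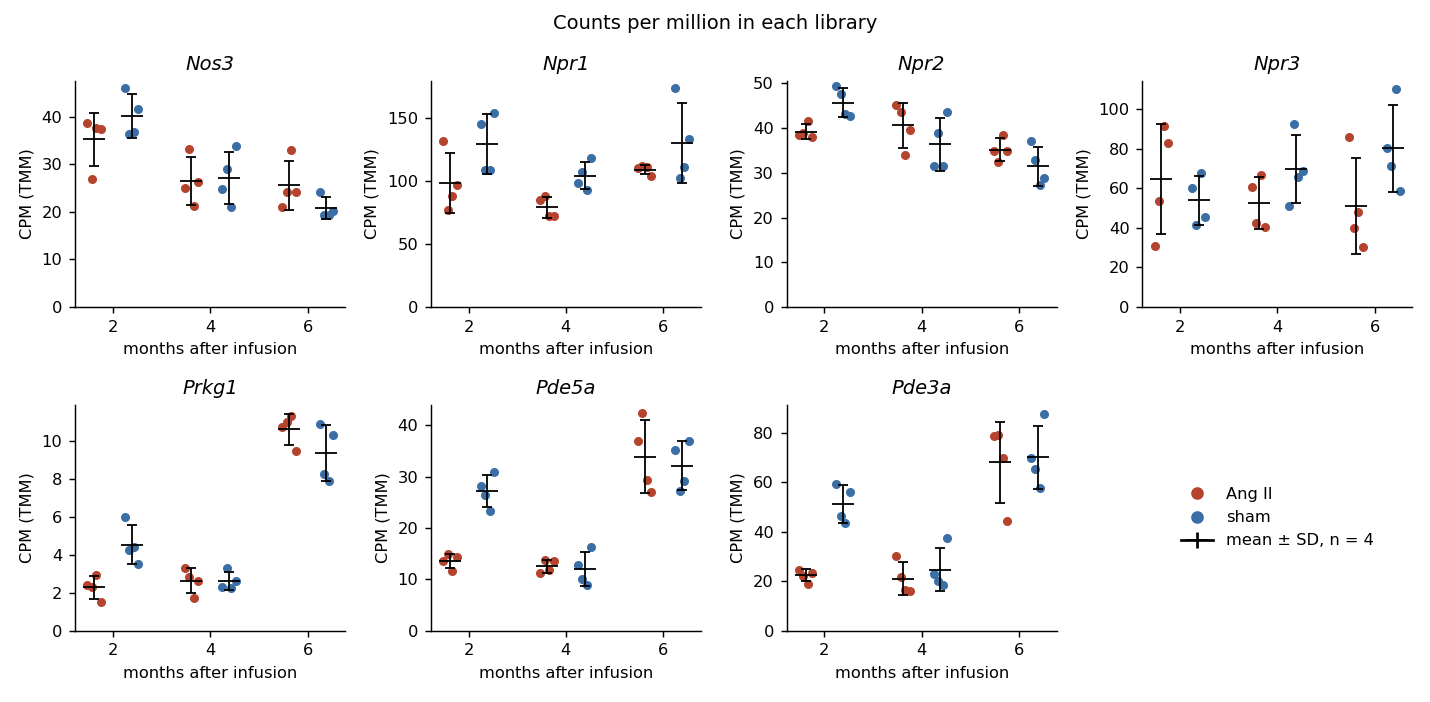
Level of each of the 7 genes in every library, in CPM from 0, with Ang II (red) left of sham (blue) at 2, 4 and 6 months; bars are mean ± SD of 4 libraries. Pde5a, Pde3a, Prkg1 and Npr2 are lower in all Ang II than in all sham libraries at 2 months, as are 5.51% of all genes. These 4 overlap at 4 and 6 months. Npr1 is lower in all Ang II than in all sham libraries at 4 months, as are 7.05% of all genes.

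Total counts, in units of 1e6, ran from 19.38 to 35.13 at 2 months, from 19.16 to 24.9 at 4 months and from 37.64 to 58.68 at 6 months. Mitochondrial transcripts took 31.75% to 59.31% of the counts at 6 months, against at most 16.32% earlier, so a change in time and a change in library make-up cannot be told apart for 6 months against the earlier times. All 14 contractile smooth muscle markers and all 12 endothelial markers used to check the tissue were detected. Single libraries also held up to 8589 CPM of airway epithelium markers or up to 8682 CPM of skeletal muscle markers.

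At 2 months the 2 phosphodiesterase genes among the 7 were lower in Ang II aortas. Pde3a fell 2.25-fold and Pde5a fell 1.96-fold, and both passed edgeR's quasi-likelihood test. Background for this count is that 1.81% of all 16421 genes tested passed, 1.44% with a lower and 0.371% with a higher level. The median log2 fold change was -0.36 over the 7 genes and 0.009 over all genes tested, and 6 of the 7 lay below 0. Because the 7 were chosen with earlier results of these data known, this contrast with all genes may be biased. Nos3, the 3 natriuretic peptide receptors and Prkg1 did not pass.

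Pde3a, which is abundant in vascular smooth muscle, stood at 24.6, 22.3, 19.1 and 23.5 CPM in Ang II aortas, against 59.5, 46.3, 43.6 and 55.9 CPM in sham aortas. Every Ang II library lay below every sham library, as for 5.51% of all genes. The Ang II and sham means were 22.4 ± 2.39 and 51.3 ± 7.57 CPM (SD, n = 4 each). The log2 fold change was -1.17 (SE 0.125, edgeR adjusted p = 0.00589).

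Pde5a, the target of sildenafil, stood at 13.6, 14.9, 11.7 and 14.3 CPM in Ang II aortas, against 28.1, 26.5, 23.3 and 30.8 CPM in sham aortas. Again no Ang II library reached the lowest sham library. The log2 fold change was -0.97 (SE 0.121, edgeR adjusted p = 0.00889). Both calls held when any 1 of the 8 libraries was left out, with adjusted p up to 0.0312 for Pde3a and 0.0435 for Pde5a. Limma voom called the same count of 2, among 3.83% of all genes.

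Prkg1 had the fewest reads of the 7, between 43 and 118 counts per Ang II library and between 85 and 170 per sham library. It stood at 2.39, 2.33, 2.96 and 1.5 CPM in Ang II aortas, against 5.99, 4.25, 4.42 and 3.49 CPM in sham aortas. The libraries did not overlap, as for 5.51% of all genes in this direction, and the log2 fold change was -0.95 (SE 0.262). It missed the threshold in edgeR (adjusted p = 0.153), while DESeq2, which called 3 of the 7 and 3.76% of all genes, gave an adjusted p of 0.0137 and an edgeR fit of all 24 libraries gave 0.0157. The authors' deposited table gives Prkg1 a log2 fold change of -0.97 with an adjusted p of 0.0144, in a table where 4.24% of genes passed.

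Nos3 stood at 38.7, 27.0, 37.7 and 37.4 CPM in Ang II aortas, against 46.1, 36.3, 36.8 and 41.5 CPM in sham aortas. The groups overlapped, and the log2 fold change of -0.17 (SE 0.122) did not pass (edgeR adjusted p = 0.756). Relative to 1000 CPM of summed endothelial markers, Nos3 stood at 35.1, 30.7, 38.0 and 35.0 in Ang II aortas and at 38.2, 37.3, 38.3 and 44.1 in sham aortas, which also overlap.

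The receptors differed less than Pde3a, Pde5a and Prkg1. Npr1, the receptor for atrial and brain natriuretic peptide, averaged 98.5 ± 23.7 CPM in Ang II aortas and 129 ± 23.7 CPM in sham aortas (SD, n = 4 each; log2 fold change -0.36, edgeR adjusted p = 0.561). Npr2, the receptor for C-type natriuretic peptide, stood at 37.9 to 41.6 CPM in Ang II aortas, against 42.8 to 49.4 CPM in sham aortas. Its libraries did not overlap, as for 5.51% of all genes in this direction. The log2 fold change was only -0.20 (SE 0.0787, edgeR adjusted p = 0.401). Npr3, the clearance receptor, spread from 31.1 to 91.6 CPM in Ang II aortas and from 41.7 to 67.9 CPM in sham aortas, and was the only one of the 7 with a log2 fold change above 0 (0.28, edgeR adjusted p = 0.869). Without the 3 libraries rich in skeletal muscle markers its value was -0.0066.

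**Figure D2:**
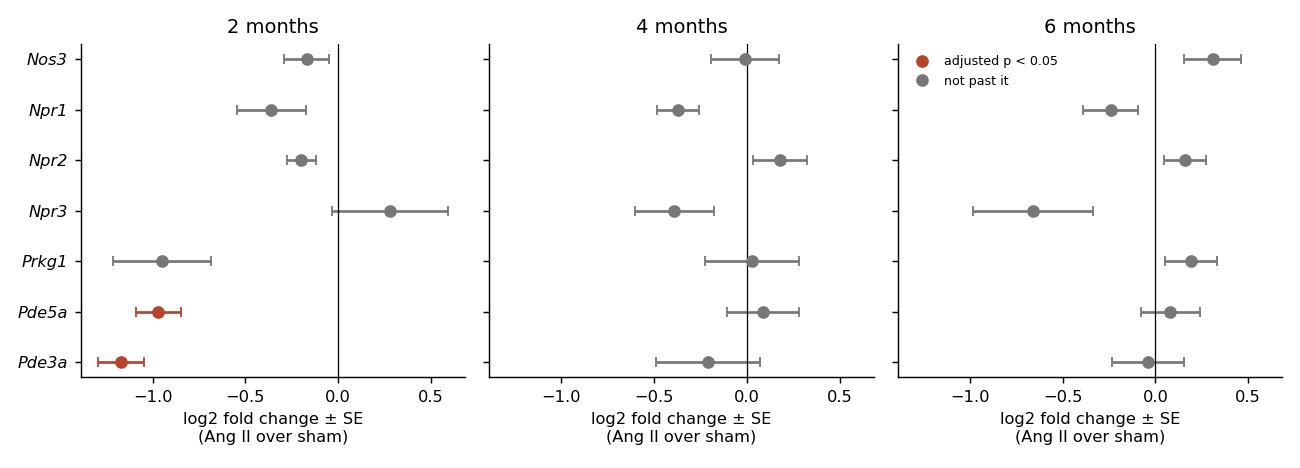
Log2 fold change of Ang II over sham with its SE (horizontal axis) for each of the 7 genes at 2, 4 and 6 months, from edgeR fits of 8 libraries per time; red marks an adjusted p under 0.05. Red points appear at 2 months only, for Pde5a (-0.97) and Pde3a (-1.17).

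A wider list of 59 nitric oxide and cGMP genes, also chosen with earlier results of these data known, was read alongside. At 2 months 50 of them had enough reads, 7 were lower, none was higher and 43 did not pass (edgeR, DESeq2 called 9 of the 59). Over all genes tested 1.81% passed in edgeR, 1.44% with a lower level, and 3.76% in DESeq2. Besides Pde3a and Pde5a these were 1 soluble guanylyl cyclase subunit, 3 genes of kinase targets and effectors, and 1 amino acid transporter. Their median over the 50 was -0.12, against 0.009 over all genes tested.

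Gucy1b1, the beta subunit that binds the haem of soluble guanylyl cyclase, stood at 19.7, 21.4, 18.4 and 23.2 CPM in Ang II aortas, against 39.2, 37.0, 27.7 and 44.1 CPM in sham aortas. The groups did not overlap, as for 5.51% of all genes in this direction. The log2 fold change was -0.81 (SE 0.144, edgeR adjusted p = 0.028). That call was lost when any library but sham replicate 3 was left out, with adjusted p from 0.0588 to 0.112. Its partner Gucy1a1, the alpha subunit, averaged 38.0 ± 6.41 CPM in Ang II aortas and 53.6 ± 7.51 CPM in sham aortas (SD, n = 4 each), and its log2 fold change of -0.46 did not pass (edgeR adjusted p = 0.27).

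Of 10 kinase targets and effectors, 3 were lower. Irag1, the substrate through which the kinase restrains calcium release, stood at 19.8, 15.4, 13.4 and 12 CPM in Ang II aortas, against 50.8, 44.4, 39.5 and 59.0 CPM in sham aortas. This was 3.12-fold lower (log2 fold change -1.64, SE 0.187, edgeR adjusted p = 0.00714), with no overlap, as for 5.51% of all genes in this direction. Ppp1r12b, a targeting subunit of myosin phosphatase, averaged 63.1 ± 12.2 CPM in Ang II aortas and 149 ± 17.7 CPM in sham aortas (log2 fold change -1.21, edgeR adjusted p = 0.00897), a call that was lost without the airway-rich libraries described below (adjusted p = 0.0909). Kcnmb1, the beta subunit of the large-conductance potassium channel of smooth muscle, stood at 7.41, 3.67, 3.30 and 2.16 CPM in Ang II aortas, against 29.4, 20.1, 18.9 and 38.4 CPM in sham aortas. Its log2 fold change was -2.65 (SE 0.398, edgeR adjusted p = 0.0159), and the adjusted p was 0.0637 without sham replicate 1, 0.0566 without Ang II replicate 2 and 0.0639 without Ang II replicate 3. Ppp1r12a, the other targeting subunit, had a log2 fold change of -0.71 and an edgeR adjusted p of 0.0792.

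Of the genes that supply nitric oxide synthesis, 1 of 15 measured passed. Slc7a2, a transporter of arginine, the substrate of nitric oxide synthase, stood at 10.5, 10.7, 10.3 and 9.83 CPM in Ang II aortas, against 15.5, 19.5, 20.8 and 16.6 CPM in sham aortas. The groups did not overlap, as for 5.51% of all genes in this direction. The log2 fold change was -0.79 (edgeR adjusted p = 0.021). The adjusted p was 0.0537 without sham replicate 2, 0.0763 without Ang II replicate 3, 0.0753 without Ang II replicate 4, 0.0504 with replicate numbers as a block, 0.172 in the fit of all 24 libraries and 0.176 without the airway-rich libraries.

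The other phosphodiesterases did not pass. Pde1b, a calcium-dependent enzyme, was higher in every Ang II library, at 9.62 to 12.8 CPM against 6.48 to 9.01 CPM in sham aortas. Its log2 fold change was 0.49, with an edgeR adjusted p of 0.26. The share of all genes that separated in that direction is not given here. Pde3b, a relative of Pde3a that is abundant in adipocytes, averaged 273 ± 33.7 CPM in Ang II aortas and 262 ± 51.1 CPM in sham aortas (SD, n = 4 each). Pde1a, Pde9a and Pde1c had log2 fold changes of 0.17, 0.18 and -0.82, and Pde2a had too few reads to be tested at 2 and 4 months. The second cGMP kinase gene, Prkg2, averaged 1.47 ± 0.697 CPM in Ang II aortas and 2.06 ± 0.996 CPM in sham aortas.

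The peptide genes were variable or near absent. Nppa, which encodes atrial natriuretic peptide, ran from 25.3 to 77.6 CPM in Ang II aortas and from 2.43 to 76.3 CPM in sham aortas. Nppb, for brain natriuretic peptide, stayed at or under 3.94 CPM in both groups, and Nppc, for C-type natriuretic peptide, at or under 0.256 CPM. Cardiac muscle markers summed to 1263 to 2234 CPM in Ang II libraries and 512 to 6275 CPM in sham libraries at 2 months, and their part in the peptide levels was not tested.

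**Figure D3:**
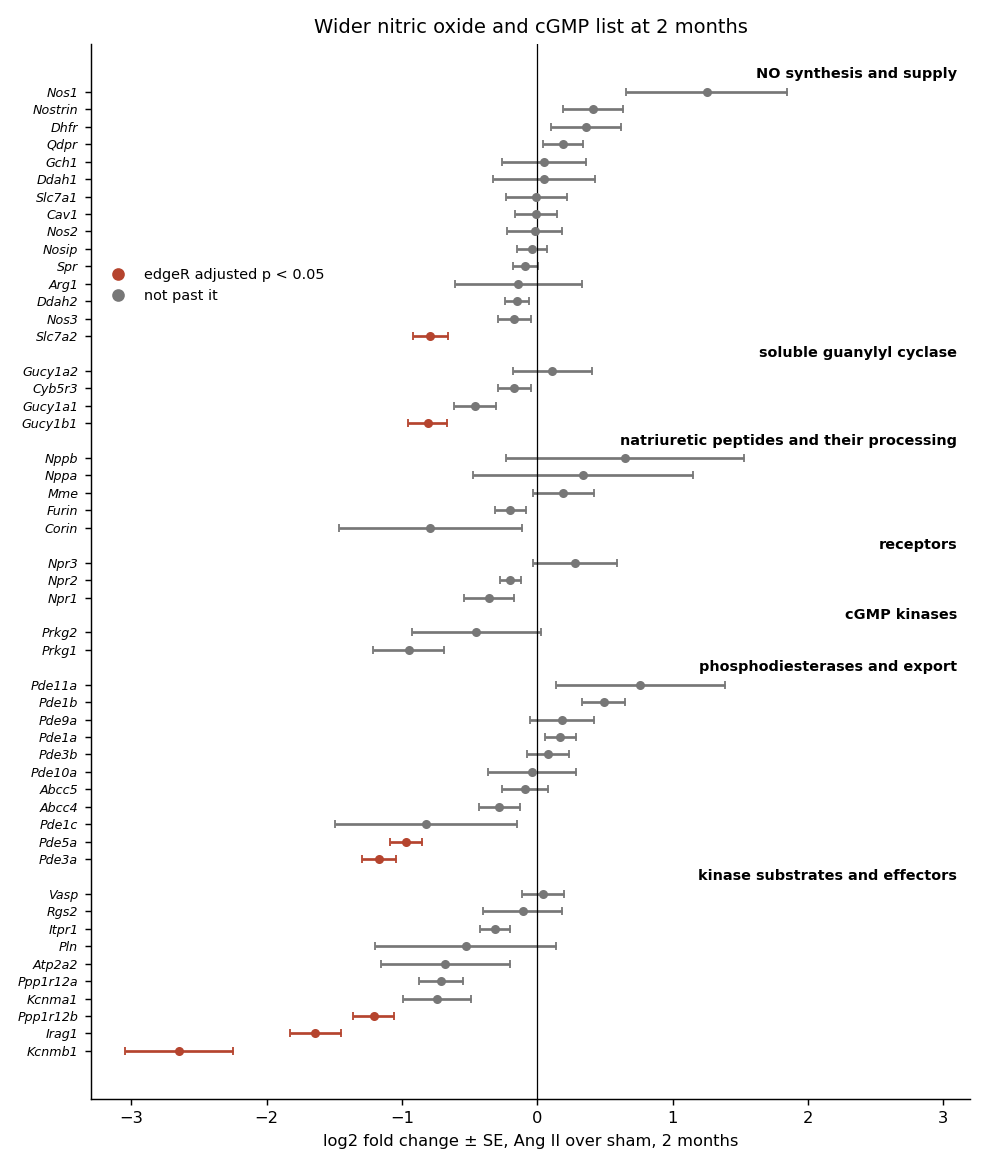
Log2 fold change of Ang II over sham with its SE at 2 months (horizontal axis) for the 50 measured genes of the wider list, grouped by role; red marks an edgeR adjusted p under 0.05. All 7 red points lie left of 0, from Slc7a2 (-0.79) to Kcnmb1 (-2.65).

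Contractile smooth muscle markers were also lower in Ang II aortas at 2 months. The 14 markers summed to 2067, 1382, 2002 and 1159 CPM in Ang II aortas, against 6115, 4888, 4042 and 7543 CPM in sham aortas. Of the 14, 11 were lower by edgeR and none was higher. Their median log2 fold change was -1.88, against -0.36 over the 7 genes. The 12 endothelial markers summed to 879 to 1105 CPM in Ang II aortas and 941 to 1205 CPM in sham aortas, and overlapped. The 10 macrophage markers summed to 661, 932, 684 and 578 CPM in Ang II aortas, against 339, 407, 591 and 517 CPM in sham aortas, which overlap. Of these 10, 3 were higher by edgeR and none was lower, with a median log2 fold change of 0.69. Per 1000 CPM of the contractile sum, Pde5a stood at 5.83 to 12.4 in Ang II aortas and 4.09 to 5.76 in sham aortas, without overlap. Prkg1 stood at 1.16 to 1.68 in Ang II aortas and 0.462 to 1.09 in sham aortas, again without overlap. Pde3a stood at 9.54 to 20.2 in Ang II aortas and 7.41 to 10.8 in sham aortas, and Irag1 at 6.71 to 11.2 in Ang II aortas and 7.83 to 9.77 in sham aortas, and both overlap. On this ratio 83.1% of all genes were higher in every Ang II library, so the higher ratio of Pde5a and Prkg1 was shared by most genes. The part of smooth muscle or macrophage content in the levels of the 7 genes was not tested.

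Libraries with RNA of neighbouring tissue were set aside in turn. Without the 3 libraries over 1000 CPM of airway epithelium markers (Ang II replicates 1 and 2, sham replicate 3), Pde3a and Pde5a were still called, among 119 genes. Of the 5 other genes called on the wider list, Irag1 and Kcnmb1 kept their call there, while Ppp1r12b (log2 fold change -1.31, edgeR adjusted p = 0.0909), Gucy1b1 (-0.96, 0.0631) and Slc7a2 (-0.79, 0.176) lost theirs. Without the 3 over 1000 CPM of skeletal muscle markers (Ang II replicates 2 and 3, sham replicate 2), no gene was called by edgeR in the 5 libraries left. The log2 fold changes there were -1.12 for Pde3a and -0.95 for Pde5a (edgeR adjusted p = 0.193 for both).

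**Figure D4:**
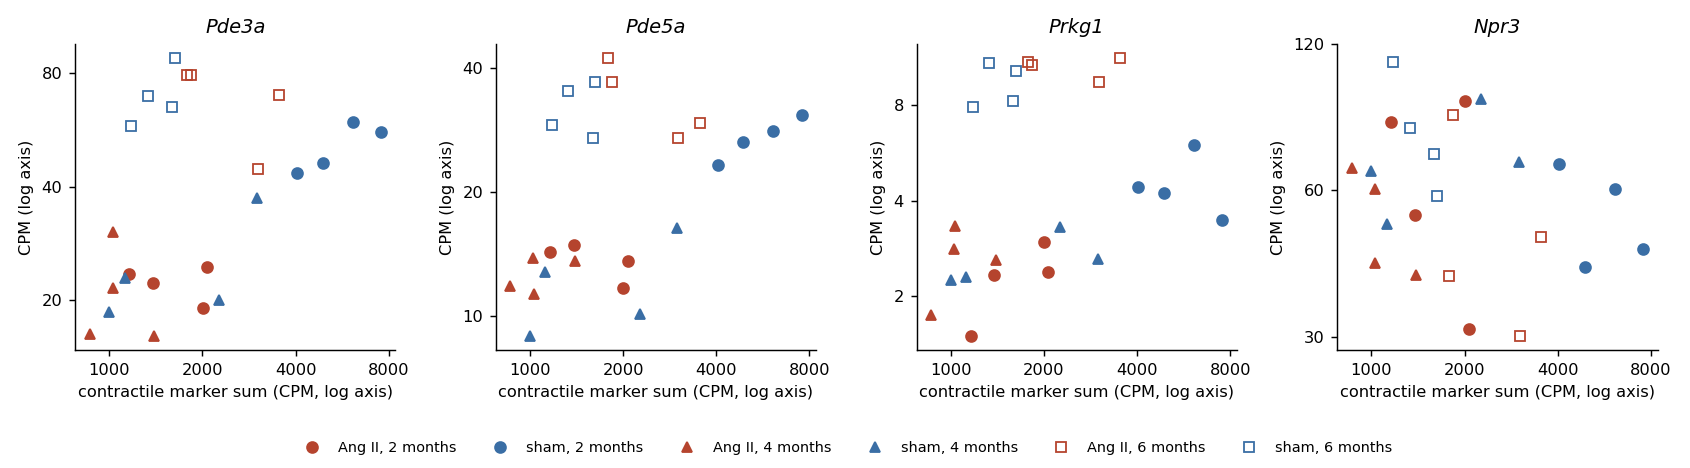
Level of 4 of the genes (CPM, log axis) against the summed contractile smooth muscle markers (CPM, log axis) in each of 24 libraries; colour gives the treatment and shape the time. At 2 months the sham libraries lie at 4042 to 7543 and the Ang II libraries at 1159 to 2067 on the marker axis of every panel. On the level axis Ang II and sham libraries of 2 months separate for Pde3a, Pde5a and Prkg1 and overlap for Npr3.

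At 4 months the libraries of both phosphodiesterase genes overlapped and neither gene passed. No gene of the 7 and none of the 50 measured on the wider list passed in edgeR, where 0.707% of 16127 genes did. Unadjusted edgeR p was under 0.05 for 1 of the 7 and for 2502 of all 16127 genes tested. Of the 7, DESeq2 called 1 (5.16% of all genes) and limma voom called none (3.73% of all genes). Pde3a stood at 30.4, 21.6, 16.3 and 16.1 CPM in Ang II aortas, against 22.9, 20, 18.6 and 37.4 CPM in sham aortas. Pde5a stood at 11.3, 13.8, 11.8 and 13.6 CPM in Ang II aortas, against 12.8, 10.1, 8.93 and 16.3 CPM in sham aortas. Both pairs of groups overlap, and sham replicate 4 was the highest sham library for both genes. That library also had the highest contractile marker sum of its group (2992 CPM). Prkg1 averaged 2.63 ± 0.661 CPM in Ang II aortas and 2.62 ± 0.48 CPM in sham aortas (SD, n = 4 each).

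Npr1 was the 1 gene of the 7 with an unadjusted edgeR p under 0.05 at 4 months, where 2502 of all 16127 genes had one. It stood at 84.5, 88.2, 72.1 and 72.2 CPM in Ang II aortas, against 98.3, 107, 93.1 and 118 CPM in sham aortas. The libraries did not overlap, as for 7.05% of all genes in this direction, and the log2 fold change was -0.37 (SE 0.112, unadjusted p = 0.00981, edgeR adjusted p = 0.167). DESeq2 gave an adjusted p of 0.0472, and the authors' deposited table gives 0.0324 with a log2 fold change of -0.39, where 6.11% of genes passed. Macrophage markers summed to 648 to 1097 CPM in Ang II aortas and 342 to 559 CPM in sham aortas at 4 months, without overlap, and 2 of the 10 were higher by edgeR with none lower (median log2 fold change 0.94). Adipocyte markers summed to 12986 to 16783 CPM in Ang II aortas and 10372 to 12083 CPM in sham aortas, also without overlap, and none of the 6 passed. The part of either in the level of Npr1 was not tested.

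At 6 months none of the 7 genes passed, nor did any of 19343 genes in edgeR (0%). Over all genes 976 had an unadjusted p under 0.05 and DESeq2 called 54 (0.219%), of which none was among the 7; limma voom called none (0%). None of the 7 passed in the authors' deposited table for 6 months, where 0.311% of genes did. By size of the log2 fold change Npr3 came first, with a log2 fold change of -0.66 (SE 0.321), followed by Nos3, with 0.31 (SE 0.153). None of the 7 had an unadjusted p under 0.05. Npr3 stood at 85.7, 40.1, 48.2 and 30.1 CPM in Ang II aortas, against 80.5, 71.4, 110 and 58.5 CPM in sham aortas, so 3 Ang II libraries lay below all sham libraries. Nos3 stood at 21.1, 24.2, 32.9 and 24.1 CPM in Ang II aortas, against 24.1, 19.3, 19.4 and 20.2 CPM in sham aortas. Per 1000 CPM of endothelial markers Nos3 stood at 27.6 to 30.9 in Ang II aortas and 20.6 to 23.6 in sham aortas, without overlap, as 1.82% of genes did in that direction. Pde5a averaged 33.9 ± 7.02 CPM in Ang II aortas and 32.1 ± 4.75 CPM in sham aortas, and Pde3a 68.1 ± 16.3 CPM in Ang II aortas and 70.1 ± 12.7 CPM in sham aortas (SD, n = 4 each). The contractile sum at 6 months lay at 1782 to 3536 CPM in Ang II aortas and 1177 to 1627 CPM in sham aortas, the opposite order from 2 months.

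The change over time was read within each treatment. In sham aortas at 4 against 2 months, Pde5a had a log2 fold change of -1.20 (edgeR adjusted p = 0.0853), Pde3a of -1.07 (0.0937), Prkg1 of -0.82 (0.148) and Nos3 of -0.59 (0.129). The libraries of both times did not overlap for any of the 4, as for 6.1% of all genes in this direction. No gene of the 7 passed in edgeR, where only 1 gene did in all (0.00619%). Unadjusted edgeR p was under 0.05 for 6 of the 7 and for 2549 of all 16144 genes tested. DESeq2 and limma voom called 4 of the 7 each (4.98% and 4.96% of all genes). Without sham replicate 4 of 4 months, edgeR called Pde3a, Pde5a and Nos3 (adjusted p = 0.00376, 0.00464 and 0.0299), among 641 genes called in all. Nos3 averaged 27.2 ± 5.46 CPM at 4 months and 40.2 ± 4.59 CPM at 2 months in sham aortas (SD, n = 4 each). The contractile smooth muscle markers summed to 999 to 2992 CPM at 4 months and 4042 to 7543 CPM at 2 months in these sham libraries, without overlap. Their median log2 fold change was -1.88, and none of the 14 passed in edgeR. The endothelial markers summed to 743 to 968 CPM at 4 months and 941 to 1205 CPM at 2 months, which overlap. Per 1000 CPM of endothelial markers Nos3 stood at 28.4 to 35.5 at 4 months and 37.3 to 44.1 at 2 months, without overlap. The share of all genes without overlap on that ratio was not counted. The part of smooth muscle or endothelial content in these changes was not tested.

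In Ang II aortas at 4 against 2 months, the log2 fold changes were -0.10 for Pde5a, -0.08 for Pde3a and 0.21 for Prkg1. None of the 7 passed in edgeR, where 1 gene did in all (0.00611%), and neither DESeq2 (1.56% of all genes) nor limma voom (0.122%) called one of them. Nos3 had the largest change, with a log2 fold change of -0.39. It had the only unadjusted edgeR p under 0.05 of the 7 (0.0355), where 1751 of all 16367 genes tested had one. These values share the 2-month and 4-month libraries with the Ang II against sham comparisons. Among the 16 libraries of 2 and 4 months, the sham libraries of 2 months lay above all others for Pde3a, Pde5a and Prkg1. The contractile marker sum had the same order, at 4042 to 7543 CPM in those sham libraries and at most 2992 CPM in the others. The share of all genes with this order was not counted, and the part of smooth muscle content in it was not tested.

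The difference in Ang II effect between times was tested over all 24 libraries. For 6 against 2 months, Pde5a passed, with a difference of 1.08 on the log2 scale (SE 0.237, edgeR adjusted p = 0.0303), where 0.843% of 19218 genes passed and 0.583% with a positive difference. Prkg1 had 1.17 (0.0779) and Pde3a 1.16 (0.1), which missed the threshold in edgeR while DESeq2 (2.66% of all genes) and limma voom (1.9%) called both. The call of Pde5a was lost with replicate numbers as a block (adjusted p = 0.0945), without a low-count filter (0.0543) and on leaving out any 1 of 8 libraries. Those were sham replicates 1 and 4 (0.0712 and 0.0697) and Ang II replicates 3 and 4 (0.071 and 0.0505) of 2 months. At 6 months they were sham replicates 2 and 3 (0.0784 and 0.0728) and Ang II replicates 1 and 2 (0.0598 and 0.0749). On the wider list Irag1 (1.96, edgeR adjusted p = 0.0164), Ppp1r12b (1.73, 0.008) and Ppp1r12a (0.77, 0.0487) passed as well, the last of which lost its call in 19 of 24 fits that left out 1 library, with adjusted p up to 0.113, and also without a low-count filter (0.0898) and with DESeq2 size factors (0.0545).

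For 4 against 2 months the difference was 1.07 for Pde5a (edgeR adjusted p = 0.115), 0.99 for Prkg1 (0.285) and 0.97 for Pde3a (0.322). None of the 7 passed in edgeR, where 1 gene did in all (0.0052%). Unadjusted edgeR p was under 0.05 for 4 of the 7 and for 1786 of all 19218 genes tested. DESeq2 called 1 of the 7 (0.884% of all genes) and limma voom 3 (2.47%). Without sham replicate 4 of 4 months, Pde5a (1.25, adjusted p = 0.00866) and Pde3a (1.24, 0.0467) passed in edgeR, among 188 genes in all.

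Averaged over the 3 times, none of the 7 passed in edgeR, where 0.26% of 19218 genes did. Unadjusted edgeR p was under 0.05 for 4 of the 7 and for 1721 of all genes tested. DESeq2 called 1 of the 7 (1.35% of all genes) and limma voom none (0.885%). Npr1 had an average log2 fold change of -0.34 (SE 0.0959, edgeR adjusted p = 0.144), with values of -0.36, -0.37 and -0.24 at 2, 4 and 6 months. Pde3a averaged -0.49 (edgeR adjusted p = 0.126, DESeq2 0.0365). It passed in edgeR without Ang II replicate 1 of 4 months (adjusted p = 0.0469), among 77 genes in all. It also passed in edgeR over the 16 libraries of 2 and 4 months (-0.69, adjusted p = 0.0442), among 342 genes in all.

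Across the 24 libraries, with the mean of each time subtracted, Pde5a and Pde3a had the highest correlation of any pair of the 7 (Pearson r = 0.84 of log2 CPM). Prkg1 followed Pde3a at 0.68 and Nos3 followed Npr2 at 0.68, while Npr3 had no r above 0.01 with any other. Against the contractile sum r was 0.71 for Prkg1, 0.64 for Pde3a, 0.63 for Nos3, 0.62 for Pde5a, 0.56 for Npr2, 0.50 for Npr1 and -0.26 for Npr3. Against the endothelial sum it was 0.70 for Nos3 and 0.46 or less for the others. These libraries share their treatment groups, so the values are descriptions without a test.

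Ranked by this correlation across libraries, and not by level, the closest of 14106 genes to Nos3 were Chrnb1, Mmrn2 and Eng (r = 0.79, 0.79 and 0.77). Of these, Mmrn2 and Eng are endothelial surface or matrix genes. Pde3a was closest to Pi15, Ppef1 and Fam129a (0.95 each), and Pde5a to Fgl2, Entpd1 and Pawr (0.94, 0.91 and 0.89). Prkg1 was closest to Plxna2, Arhgef17 and Osmr (0.86, 0.85 and 0.85). Npr1 was closest to Syde1, Xkr8 and Kazald1 (0.87, 0.85 and 0.85), Npr2 to Trio, Fgd5 and Plekhg5 (0.84, 0.81 and 0.78), and Npr3 to Grb14, Nek6 and Tmem45b (0.82, 0.80 and 0.80).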

How the data were processed

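RNA of 24 mouse aortic homogenates was sequenced as messenger RNA, per the labels' protocols. Tools in the submitters' processing notes are FastQC, cutadapt, STAR and featureCounts, with DESeq2 for testing and mm10 as the build; no source used here gives versions, annotation or strandedness. The authors deposited whole-number read counts for 37606 genes and tables of Ang II against sham per time, with a base mean (signal), a log2 fold change and error, a test score, p-values and a fold change as a ratio.

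Counts were tested in R 4.3.3 with edgeR 4.0.16: filterByExpr (minimum count 10, minimum total 15), TMM scaling, and the quasi-likelihood F test with Benjamini-Hochberg adjustment over all genes at 0.05. Ang II was set against sham at each time, and 4 with 2 months within each treatment (8 libraries each). The average effect and its differences between times came from all 24 libraries. An SE is the size of the log2 fold change over the square root of F. Libraries were grouped by their labels. Alternatives were DESeq2 size factors, DESeq2 1.42.0, limma 3.58.1 (voom with quality weights), other low-count filters, no chromosome M genes, a replicate block, all 24 or 16 libraries, leaving out each library, and, chosen after seeing the data, leaving out libraries rich in airway or skeletal muscle markers. The script was tested on simulated data.

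The genes and lists were chosen with earlier results of these data known. Named were the 7 genes, further pathway genes called in a comparison and a fixed set of cyclases, peptides and phosphodiesterases; the wider list covers synthesis and supply, cyclases, peptides, receptors, kinases, phosphodiesterases and effectors. Irag1, Gucy1a1 and Gucy1b1 stand in the files under their older symbols Mrvi1, Gucy1a3 and Gucy1b3. Likeness was ranked among genes with a mean of at least 1 CPM, with the 3 closest named.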

Additional observations from a re-analysis of the deposited data

Results flagged for a closer look

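Nos3 in Ang II aortas at 2 months had 1 library far from the other 3, at 27 CPM against 37.4 to 38.7 CPM. This was the single such case among 42 sets of 4 libraries examined, where chance gives about 1 in 20. That library, replicate 2, held 2230 CPM of skeletal muscle markers and 1392 CPM of airway epithelium markers, and the part of these in the value was not tested. Replicate 3 held more skeletal muscle markers (5788 CPM) and replicate 1 more airway markers (2325 CPM), with Nos3 at 37.7 and 38.7 CPM.

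The Ang II effect differed between 6 and 2 months for 4 genes by edgeR's interaction test, with differences of 1.08 for Pde5a, 1.96 for Irag1, 0.77 for Ppp1r12a and 1.73 for Ppp1r12b on the log2 scale. Over all 19218 genes tested 0.843% passed. When 1 library was left out, Ppp1r12a lost its call in 19 of 24 fits and Pde5a in 8 of 24, while Irag1 and Ppp1r12b kept theirs. The 6-month libraries carried 31.75% to 59.31% mitochondrial counts, and time and library make-up cannot be told apart.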

How the results depend on the processing

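The lower Pde3a and Pde5a at 2 months kept their direction and their call under all alternatives listed in the methods except the one without libraries rich in skeletal muscle markers, which called 0 of the 7 and 0 genes in all. No replicate was shown to pair across groups: deviations of libraries with the same number correlated at -0.35 to 0.51 over the 5 comparisons of 2 groups, and 1 library number at most correlated best with its own.

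At 2 months 297 genes were called, against 691 by DESeq2, 629 by limma voom and 119 without libraries rich in airway markers. At 4 months 114 were called, against 920 by DESeq2, 602 by limma voom, 40 without a low-count filter, 68 with a mean count of at least 5, 214 without chromosome M genes, 0 with the replicate block and 11 in the fit of 24 libraries; DESeq2 called 1 of the 7. At 6 months DESeq2 called 54. For 4 against 2 months in Ang II aortas 1 was called, against 2 with DESeq2 size factors, 267 by DESeq2, 20 by limma voom, 3 without a low-count filter, 2 without chromosome M genes and 4 in the fit of 24. In sham aortas 1 was called, against 744 by DESeq2, 801 by limma voom, 4 without a filter, 140 with the replicate block and 453 in the fit of 24, and of the 7 these called 4, 4, 0, 1 and 2. For the average 50 were called, against 262 by DESeq2, 170 by limma voom, 22 without a filter, 2 with the replicate block and 342 over 16 libraries, and of the 7 DESeq2 and the 16 libraries called 1 each. For 4 minus 2 months 1 was called, against 171 by DESeq2, 475 by limma voom, 0 with the replicate block and 0 over 16 libraries, and of the 7 DESeq2 called 1 and limma voom 3. For 6 minus 2 months 162 were called, against 456 by DESeq2, 366 by limma voom and 61 with the replicate block, and of the 7 DESeq2 called 3, limma voom 3, and the fits without a filter and with the replicate block 0 each. The cause was not tested.

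Leaving out 1 library gave 78 to 255 genes at 2 months, 0 to 674 at 4 months (674 without sham replicate 4), 0 to 1 for Ang II and 0 to 641 for sham at 4 against 2 months, 6 to 99 for the average, 1 to 188 for 4 minus 2 months and 70 to 249 for 6 minus 2 months. Of the 7 it gave 0 to 3 for sham, 0 to 1 for the average, 0 to 2 for 4 minus 2 months and 0 to 2 for 6 minus 2 months.

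Values that changed sign were all uncalled. At 2 months these were Npr3 (-0.0066) and Nppa (-0.31) without skeletal-rich libraries, Nppb (-0.23), Pde3b (-0.02) and Pde9a (-0.02) with limma voom, and Nppb (-0.55) and Pde9a (-0.29) without airway-rich libraries. With limma voom they were Nos3 at 4 months (0.16), Pde3a at 6 months (0.02), Pde5a in Ang II aortas over time (0.08) and Npr1 for 4 minus 2 months (0.09; 0.00078 without chromosome M genes and 0.01 with the replicate block). Over 16 libraries the average was -0.10 for Nos3 and -0.01 for Npr2. Leaving out 1 library gave, at 2 months, -0.05 to 0.84 for Nppa, -0.22 to 1.21 for Nppb, -1.14 to 0.31 for Pde1c, -0.03 to 0.18 for Pde3b and -0.0026 to 0.32 for Pde9a. At 4 months it gave -0.15 to 0.11 for Nos3, -0.11 to 0.19 for Prkg1, -0.03 to 0.27 for Pde5a and -0.44 to 0.05 for Pde3a, and at 6 months -0.00085 to 0.18 for Pde5a and -0.12 to 0.12 for Pde3a. In Ang II aortas over time it gave -0.32 to 0.02 for Pde3a and -0.0059 to 0.13 for Npr2, for the average -0.02 to 0.07 for Nos3, and for 4 minus 2 months -0.10 to 0.17 for Npr1.

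Prkg1 rests on at most 170 counts per library at 2 months, and had an SE of 0.262. Differences larger than their SE also missed the threshold, such as those of Prkg1 at 2 months (-0.95, SE 0.262) and Npr1 at 4 months (-0.37, SE 0.112).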
